A study of Mus musculus with 16 samples.

Results

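Mouse endometrial epithelial organoids, grown from the cell layer that lines the uterus, were compared with and without a sequence of ovarian hormones in the control genotype. The comparison was between 8 of the 16 RNA-seq libraries of the study, chosen by their labels. M1 to M4 were control organoids under vehicle and M9 to M12 were control organoids under E2/MPA. Both groups carried the floxed Tgfbr2 alleles (Tgfbr2 FF), so the control is not a plain wild type, and their labels name no Cre. All organoids were cultured for 2 days. Vehicle then followed for 6 days in one group. The other had 10 nM 17-beta-estradiol (E2) alone for 2 days, and for 4 more days the same E2 dose plus the synthetic progestin MPA (medroxyprogesterone acetate) at 1 µM. No group ended with E2 or MPA alone, so the parts of the 2 hormones cannot be told apart. The other 8 libraries were organoids of a conditional Tgfbr2 knockout (cKO), made with PR-Cre, under the same treatments. The labels do not tie a group's 4 libraries to separate mice. The p-values therefore reflect only the spread of libraries within groups, which may be technical. That spread was estimated from all 16 libraries, with the cKO ones included. Values are normalized read counts, that is, reads per gene scaled by each library's size factor, from 14381840 to 20016836 reads per library in the 8 control libraries.

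Estradiol acts through estrogen receptor alpha and progestins act through the progesterone receptor, nuclear receptors that bind DNA and change transcription. In the uterus estrogen drives growth of the epithelium. Progesterone then halts that growth, lowers its own receptor in the epithelium and turns on secretory and transport genes before implantation. MPA also binds the glucocorticoid receptor, which recognises the same DNA half-site, TGTTCT, as the progesterone receptor.

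Epithelial markers were present in every library. The summed level of 14 epithelial identity genes, among them Epcam, Cdh1 and Krt8, was 151918 to 224521 under vehicle and 157611 to 198673 under E2/MPA. The summed level of 14 stromal fibroblast genes ranged far more, from 1026 to 66657 under vehicle and from 2160 to 63757 under E2/MPA. It was highest in M4 and M12, next in M9 (27822) and M1 (15096), and at most 2808 in M2, M3, M10 and M11. The ranges of the groups overlapped, and 1 of the 14 genes, Postn, passed the test. Smooth muscle genes summed to at most 2422, and were highest in M4 and M12. Among 10 leukocyte and macrophage genes, which summed to 18200 to 35419 under vehicle and 15453 to 30931 under E2/MPA, Cd14 held most of the sum outside M4 and M12. The macrophage gene Adgre1 was at 363 in M4 and 437 in M12 and at most 55.3 in the other 6 libraries. The 13 of 18 multiciliated cell genes in the table summed to at most 252 in any library, and the 5 of 8 endothelial genes in the table to at most 572. Mcidas, Tekt1, Deup1, Dnai1, Dnai2, Emcn, Tie1 and Cldn5 were not in the table. No listed gene in the table was at 0 in all 8 libraries. That was largely fixed in advance, because the lowest total of a gene over all 16 libraries was 17 reads. In bulk RNA, fewer cells of a type and less RNA per cell cannot be told apart.

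**Figure D1:**
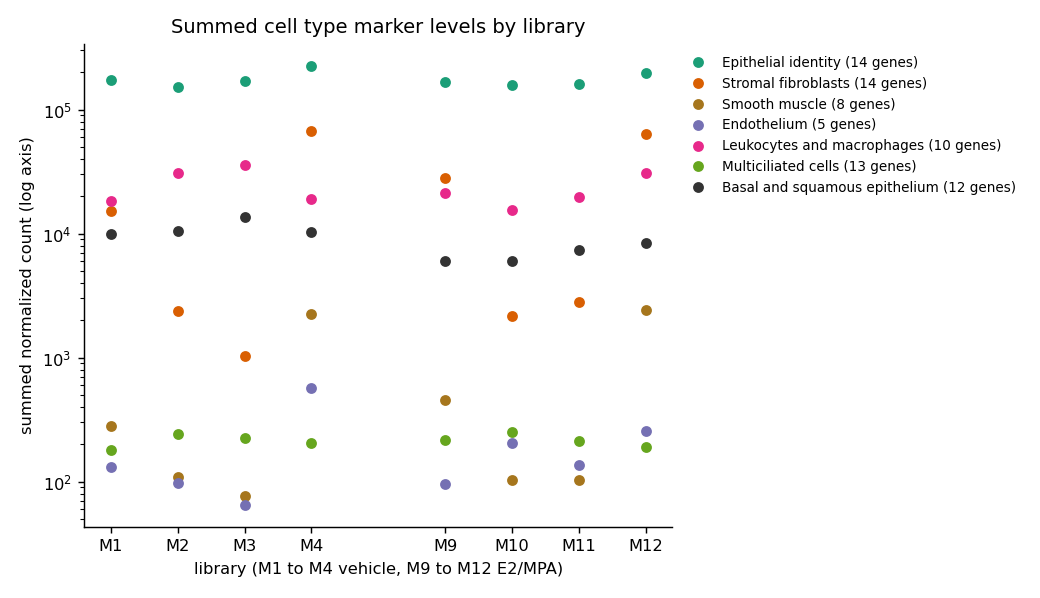
Summed normalized count (log axis) of 7 cell type marker lists in each of the 4 vehicle and 4 E2/MPA control libraries; each point is 1 library. Epithelial genes lie between 151918 and 224521 in all 8 libraries, while stromal genes range from 1026 (M3) to 66657 (M4).

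Promoter windows of 3 genes are shown because they belong to genes on which the results below turn. They run from 250 bases before to 50 after a RefSeq start site on build GRCm38.p6, which is not the build of the read counts. Capitals in the first 2 mark TGTTCT or its reverse complement AGAACA, and capitals in the last mark the 165 bases that the Gps1 window shares with the window of Rfng, a gene that starts on the opposite strand with its start site 66 bases away.
Abcb5, chr12:118966372-118966671, minus strand: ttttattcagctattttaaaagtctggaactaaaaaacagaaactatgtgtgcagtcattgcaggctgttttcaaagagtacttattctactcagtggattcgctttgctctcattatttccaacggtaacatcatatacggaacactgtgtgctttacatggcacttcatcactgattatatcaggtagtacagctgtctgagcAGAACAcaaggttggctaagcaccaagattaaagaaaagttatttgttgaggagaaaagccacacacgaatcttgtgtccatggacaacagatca
Ptgs1, chr2:36230176-36230475, plus strand: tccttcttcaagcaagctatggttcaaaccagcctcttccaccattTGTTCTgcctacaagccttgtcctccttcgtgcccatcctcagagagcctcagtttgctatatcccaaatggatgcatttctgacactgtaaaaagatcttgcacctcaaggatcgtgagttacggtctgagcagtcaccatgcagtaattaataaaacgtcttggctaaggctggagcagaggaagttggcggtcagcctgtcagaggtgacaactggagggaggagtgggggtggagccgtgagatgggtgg
Gps1, chr11:120784020-120784319, plus strand: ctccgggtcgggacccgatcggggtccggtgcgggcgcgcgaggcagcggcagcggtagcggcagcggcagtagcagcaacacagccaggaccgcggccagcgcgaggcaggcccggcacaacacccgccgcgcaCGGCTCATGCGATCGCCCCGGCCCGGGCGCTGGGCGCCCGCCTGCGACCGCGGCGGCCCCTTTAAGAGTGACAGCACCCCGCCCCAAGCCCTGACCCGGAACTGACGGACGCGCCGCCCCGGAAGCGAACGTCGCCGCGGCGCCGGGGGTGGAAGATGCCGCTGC
The window of Abcb5, a gene of an ABC transporter, holds 1 half-site at bases 206 to 211, and that of Ptgs1, the gene of cyclooxygenase 1, holds 1 at bases 47 to 52. Among other windows looked at, that of Klk1b24 holds 1. The windows of Fkbp5, Klf15, Per1, Ldhd, Slc25a48 and Gps1 hold none, which says only that these letters are not in these windows. Those of Klk1b21, Klk1b27, Klk1b11, Klk1b1, Nfkbia, Zfp36, Pdk4 and Rfng hold none either. The half-site was found on either strand in 19.0% of the 27025 promoter windows of the table, so a match describes a sequence and not a site of binding. The full estrogen response element (GGTCA, 3 bases of any kind, TGACC) was found in 18 of the 27025. Of the 11087 tested genes with a window, 12.4% held the half-site. A comparison of shares between genes that rose and other genes was void, because the table held windows for 648 of the 890 genes that rose and 11087 of the 16509 tested, both under 80%.

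E2/MPA changed the level of 1469 of 16509 tested genes, or 8.90%, by limma at a Benjamini-Hochberg adjusted p under 0.05. Of these 890 rose (5.39% of tested genes) and 579 fell (3.51%). The 4 libraries of each group did not overlap for 1224 of the called genes and for 12.1% of all tested genes, so a lack of overlap below is the usual case for a called gene. Rises reached further than falls. Of the genes that rose, 408 did so at least 2-fold, 105 at least 8-fold and 46 at least 16-fold. Of the genes that fell, 148 did so at least 2-fold, 6 at least 8-fold and 0 at least 16-fold. The median change was 0.91 on the log2 scale among genes that rose and -0.56 among genes that fell, against -0.001 over all tested genes. Genes that rose took 4.34% to 5.33% of the normalized counts in the vehicle libraries and 7.44% to 9.81% under E2/MPA. Those that fell went from 4.86% to 6.21% of the counts down to 3.23% to 3.97%. These shares describe genes chosen by the test itself. The split of the calls depended on the scaling, with 60.6% of calls higher as deposited, 53.3% after upper-quartile rescaling and 48.5% after quantile normalization. The number of calls moved by over 1.5 times when 1 of 4 libraries was left out, to 803 (M1 left out), 759 (M10), 781 (M11) and 2230 (M12). Without the 4 stroma-rich libraries M4, M8, M12 and M16 there were 2210 calls, which held 1295 of the 1469 in the same direction, and none in the opposite one. With the mean level of the stromal markers as a covariate, all 1469 calls were kept among 4184.

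**Figure D2:**
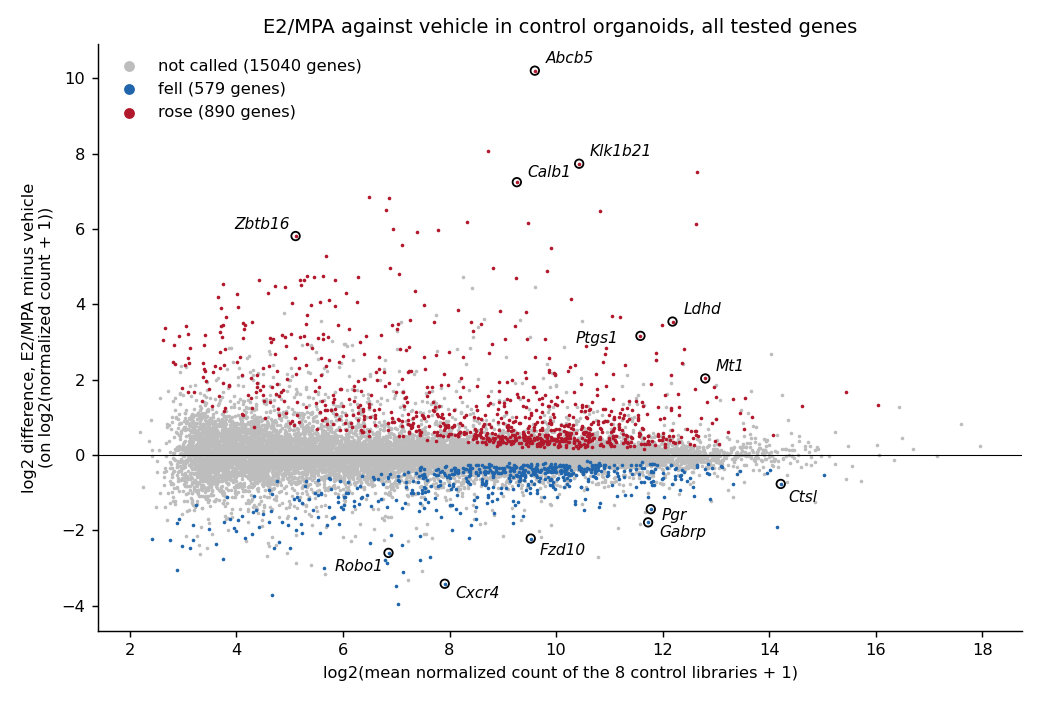
Each point is 1 of 16509 tested genes; the x axis is the log2 mean level over the 8 control libraries and the y axis is the log2 difference between E2/MPA and vehicle, both with 1 added to the normalized count. Of the points, 890 rose (red) and 579 fell (blue), and the rises extend to 10.20 on the log2 scale (Abcb5) while few falls pass -3.

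The gene with the lowest adjusted p was Abcb5 (ENSMUSG00000072791). No read of it was counted in any vehicle library, and it was at 824, 2259, 2754 and 368 in M9 to M12 (adjusted p = 3.8e-07). The transcription factor gene Zbtb16 (ENSMUSG00000066687) had 1 read in the vehicle group and stood at 67.5, 67, 66.5 and 66 in M9 to M12 (adjusted p = 1.0e-06). Its 4 treated libraries were thus alike, while those of Abcb5 differed several-fold, with M12 lowest and M10 and M11 highest. Slc25a48 (ENSMUSG00000021509), which encodes a carrier of the inner mitochondrial membrane, was at 1489, 1360, 1380 and 1855 in M1 to M4 under vehicle. It was at 5476, 5422, 5830 and 5441 under E2/MPA, a rise of 3.67-fold (adjusted p = 7.1e-06) that was nearly even over the 4 libraries. Ldhd (ENSMUSG00000031958), which encodes the mitochondrial D-lactate dehydrogenase, went from 606, 857, 727 and 574 to 8361, 11239, 11083 and 3806. That is 11.6-fold (adjusted p = 6.7e-06), with M12 again lowest. Of the exon bases of Ldhd, 42.2% also lie in exons of Znrf1 on the opposite strand, and whether the counting used strand is not stated in the labels or notes used here, so reads of the 2 genes may be mixed. Fkbp5, whose product is a co-chaperone of steroid receptors, went from 159, 82.4, 110 and 290 to 1149, 1498, 1387 and 896 (adjusted p = 5.7e-05).

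**Figure D3:**
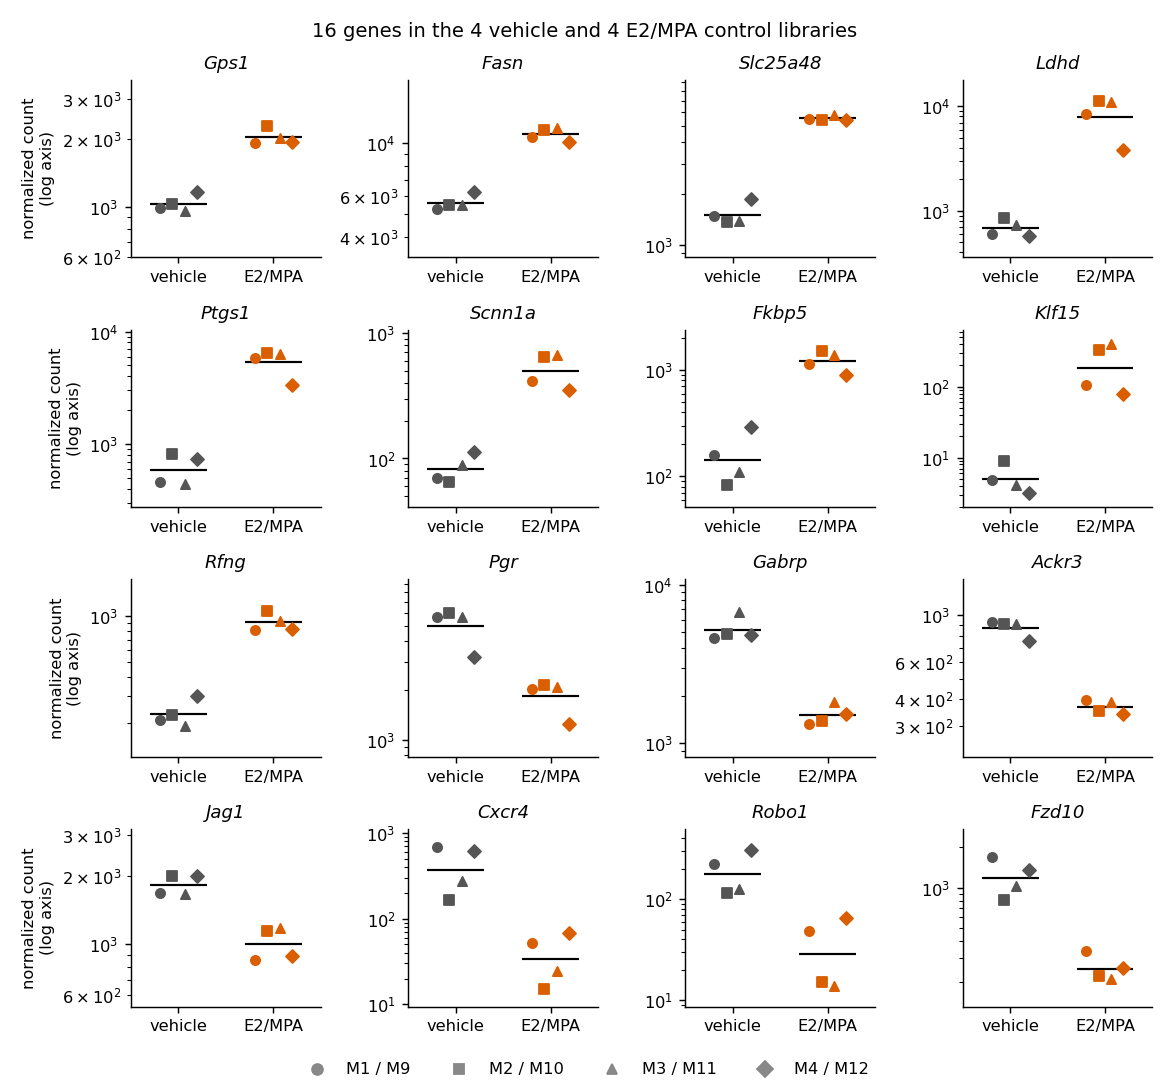
Normalized count (log axis) of 16 genes in each control library, vehicle in grey and E2/MPA in orange, with the group mean of the log values as a line; the marker shape names the library. In every panel the 4 E2/MPA libraries lie wholly above or wholly below the 4 vehicle libraries, and for Ldhd, Ptgs1 and Klf15 the lowest treated library is M12.

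Genes that rose often lay side by side on the chromosome, a pattern that was looked for after the values had been seen. Of the 16509 tested genes, 16249 could be placed in gene order with GENCODE M21, which was used for the order only. Among genes that rose, the next tested gene along the chromosome had also risen in 156 of 878 cases, or 17.8%, against 5.42% of all next genes. For genes that fell the values were 43 of 575, or 7.48%, against 3.54%. A rise next to a fall occurred 39 times. When pairs with overlapping gene bodies and pairs with like symbols were left out, the share after a gene that rose was 15.1%, against 5.68%. For all adjacent pairs the ratio of 17.8% to 5.42% was 3.28, and it ran from 1.80 to 7.43 over 25 other settings.

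At least 3 tested genes in a row rose in 27 places, which held 100 genes, and fell in 4 places, which held 12. The longest run, 8 genes, was the kallikrein cluster. A run on chromosome 11 held Rfng, Gps1, Dus1l and Fasn, which do unrelated work. Rfng (ENSMUSG00000025158) encodes Radical fringe, a glycosyltransferase that modifies Notch. It went from 210, 227, 193 and 302 to 817, 1086, 929 and 828, a rise of 3.95-fold (adjusted p = 7.2e-06). Gps1 (ENSMUSG00000025156), which encodes a subunit of the COP9 signalosome and has the window printed above that overlaps the one of Rfng, went from 983, 1025, 956 and 1156 to 1904, 2274, 2015 and 1937 (1.97-fold, adjusted p = 6.4e-06). Fasn (ENSMUSG00000025153), the gene of fatty acid synthase, went from 5276, 5480, 5454 and 6223 to 10616, 11318, 11509 and 10031 (1.94-fold, adjusted p = 4.0e-05). None of these 3 genes overlapped between the groups. Dus1l, which encodes a tRNA dihydrouridine synthase, rose by 1.41 on the log2 scale (adjusted p = 1.5e-05). Directly next to Rfng on the near side, Hmga1b had a difference of -0.39 and did not pass (adjusted p = 0.302). Beyond it, Rac3 and Dcxr both rose by 1.18, and Cbr2 between them and Hmga1b stood at 2.05 with an adjusted p of 0.0944. Cbr2 passed without M12, at 2.83 (adjusted p = 0.00667). The flanking Ccdc57, on the far side of Fasn, had a difference of -0.16 and did not pass. Dus1l, Rac3, Dcxr, Wdr59, Znrf1, Chdh, Gm18760, Cbr2, Selenok, Thpo, Polr2h and the flanking genes of each run were chosen after their values were seen.

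A run on chromosome 8 held Wdr59, Znrf1, Ldhd and Zfp1. The zinc finger gene Zfp1 stood at 126, 116, 132 and 114 under vehicle and at 248, 251, 247 and 230 under E2/MPA, a rise of 1.99-fold (adjusted p = 8.9e-06). Wdr59, of a complex that regulates mTORC1, rose by 1.00 on the log2 scale and Znrf1, a ubiquitin ligase gene, by 0.68, while the flanking Mlkl (0.23) and Bcar1 (-0.06) did not pass. On chromosome 14, Il17rb, Chdh, the predicted gene Gm18760 and Cacna1d rose by 2.81, 2.71, 2.58 and 3.01. Il17rb encodes a receptor of interleukin 25, Chdh the choline dehydrogenase of mitochondria, and Cacna1d an L-type calcium channel subunit. Chdh was at 637, 1803, 1159 and 609 under vehicle and at 5540, 8481, 7780 and 4024 under E2/MPA (adjusted p = 2.9e-04). The neighbours at either end of the run, Actr8 (0.31) and Dcp1a (-0.04), did not pass, while Selenok, next to Actr8, rose by 0.54 (adjusted p = 0.013). The call of Selenok ended without M10 (adjusted p = 0.0508). Chdh shares 9.47% of its exon bases with Cacna1d on the opposite strand. On chromosome 16, Clcn2, Polr2h, Thpo and Chrd rose by 1.31, 0.46, 1.43 and 2.64. The neighbours at either end, Fam131a (0.52, adjusted p = 0.0667) and 4833419O12Rik (1.21, adjusted p = 0.283), were higher but did not pass. On the opposite strand, Thpo shares 9.09% of its exon bases with Chrd, and Polr2h 5.43% with Clcn2. The calls of Thpo and Polr2h ended without M10 or M11, and that of Polr2h also without M1 (adjusted p up to 0.0653 and 0.0829).

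**Figure D4:**
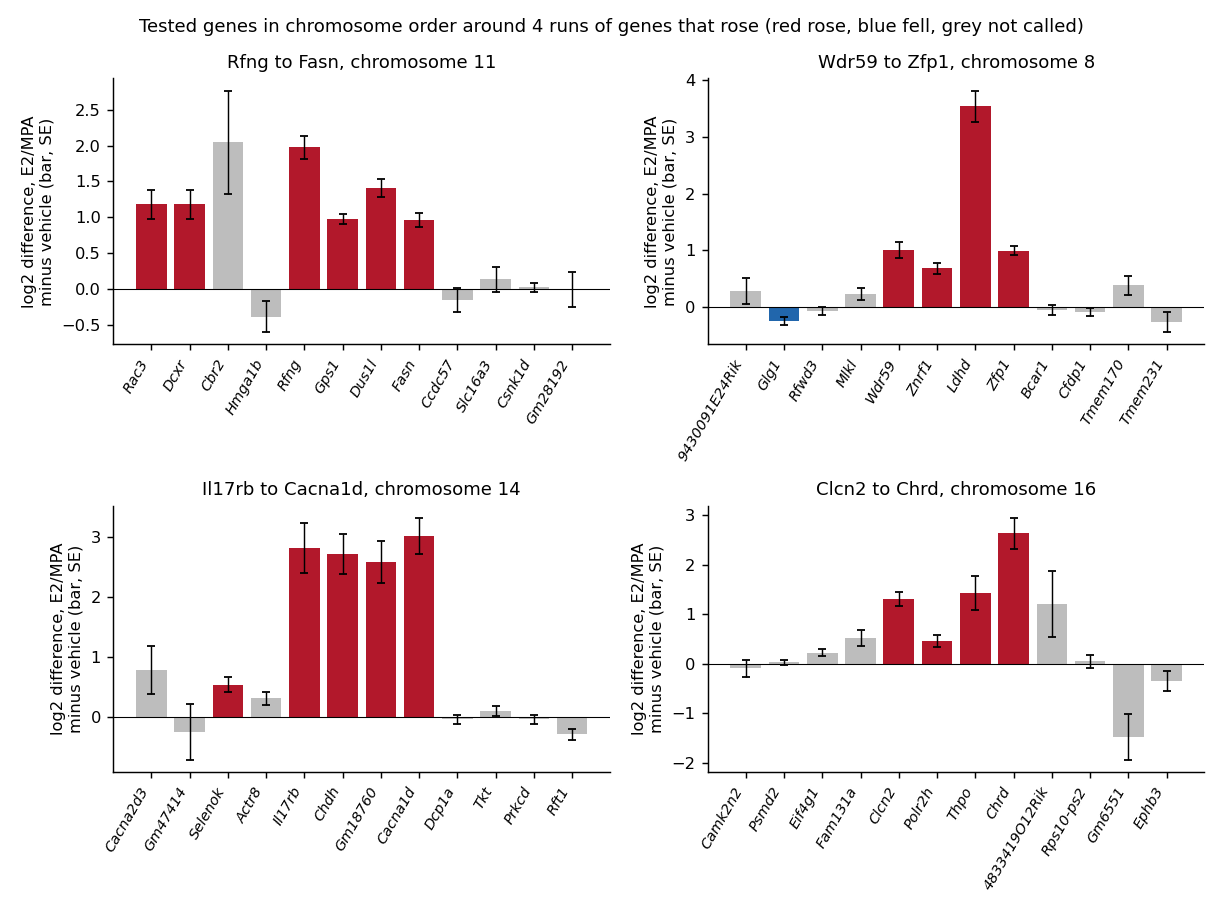
Log2 difference between E2/MPA and vehicle (bars, with SE) for tested genes in chromosome order around 4 runs of genes that rose, with 4 tested genes on either side. At the far end of the chromosome 11, 8 and 14 runs the differences drop. They go from 0.96 (Fasn) to -0.16 (Ccdc57), 0.99 (Zfp1) to -0.06 (Bcar1) and 3.01 (Cacna1d) to -0.04 (Dcp1a). On the near side of the chromosome 11 and 14 runs lie further high genes (Rac3 and Dcxr at 1.18, Cbr2 at 2.05, Selenok at 0.54). They are parted from the runs by Hmga1b (-0.39) and Actr8 (0.31), neither called. Beyond the chromosome 16 run the neighbours stay above 0, at 0.52 (Fam131a) and 1.21 (4833419O12Rik), neither called.

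Among 19 tested steroid receptor and coregulator genes 3 rose and 2 fell. Counts for this and the other lists are to be set against 5.39% of all tested genes that rose and 3.51% that fell. The lists and their members were chosen with earlier results of these data known. A share above that of all genes may thus come from the choice, and the lists are described without a test. The progesterone receptor gene Pgr went from 5666, 6002, 5663 and 3205 to 2032, 2150, 2104 and 1252. Its log2 level fell by 1.44 (SE 0.19, adjusted p = 3.8e-04), with M4 and M12 lowest in their groups. The mineralocorticoid receptor gene Nr3c2 was at 87, 41.8, 53.2 and 48 under vehicle and at 18.3, 12, 14.7 and 14.3 under E2/MPA, and fell by 1.84 (adjusted p = 6.0e-04). The p160 coactivator gene Ncoa2 rose 1.77-fold (adjusted p = 0.00423). The estrogen receptor gene Esr1 was at 2759 ± 477 and 3476 ± 754 (SD, n = 4), with overlapping groups and an adjusted p of 0.21. It was higher in 4 of 4 pairs of libraries whose numbers differ by 8. It passed without M12 (adjusted p = 0.0255), with library weights (0.0479), with those pairs as a replicate block (0.0259 as a random effect, 0.0174 as a fixed term), with the stromal covariate (0.0327) and without the 4 stroma-rich libraries (0.0445). None of 17 tested steroid metabolism genes passed limma's test, 4 had an unadjusted p under 0.05, and edgeR called 0 and DESeq2 1.

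Transcription factor genes changed in both directions. Of 47 tested epithelial transcription factor genes 8 rose and 2 fell. Klf15, a gene known as a direct glucocorticoid and progestin target, went from 4.89, 9.03, 4.09 and 3.2 to 106, 330, 401 and 79.2 (adjusted p = 1.9e-04). Tcf15, a basic helix-loop-helix factor gene, had 2 reads over the 4 vehicle libraries and stood at 128, 270, 245 and 64.9. Both were highest in M10 and M11 and lowest in M12, and neither overlapped between groups. Cebpd rose 2.4-fold (adjusted p = 4.7e-04) and Pax8, a factor of Müllerian duct epithelium, rose 1.65-fold (adjusted p = 0.00309). The forkhead gene Foxo6 went from 3.91, 1.13, 4.09 and 2.4 to 12.6, 77, 76.9 and 11 (adjusted p = 0.00468), a rise carried by M10 and M11. Of 13 tested Krüppel-like factor genes 1 rose and 3 fell. Klf10, first described as an early TGF-beta response gene, went from 967, 724, 798 and 765 to 434, 277, 287 and 432 and fell by 1.21 (adjusted p = 3.2e-04). None of 16 Hox genes or 8 Sox genes tested passed limma's test. Of these, 0 and 2 had an unadjusted p under 0.05, edgeR called 0 and 0, and DESeq2 0 and 1. Of 18 clock genes 3 rose and 0 fell. Per1, a clock repressor gene that glucocorticoids are known to induce, went from 472, 534, 471 and 426 to 1052, 1130, 1094 and 721 (2.07-fold, adjusted p = 6.9e-04), and Npas2, a partner of the clock activator, rose 1.68-fold.

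Several secreted proteins and proteases rose from near 0. Of 18 kallikrein genes listed, 10 passed the filter on low values, and 6 of these rose and 0 fell. Several passed the filter through the treated group alone, so that this count was bound to be high. Klk1b27 had 1 read in the vehicle group and was at 76.7, 438, 369 and 9.9 under E2/MPA. Klk1b21 was at 0, 56.4, 22.9 and 0 under vehicle and at 889, 5432, 4525 and 128 under E2/MPA (adjusted p = 0.00686). Klk1b11 went from 11.7, 12.4, 4.91 and 13.6 to 25.2, 104, 89.9 and 45.1 (adjusted p = 0.00612). Kallikreins are serine proteases of glandular secretions, and the Klk1b genes are near-identical copies, so their separate values are uncertain. For each of these the highest libraries were M10 and M11. The call of Klk1b24 ended when any of M1, M4, M10 and M11 was left out, at an adjusted p of 0.0821 or less. The log2 difference of Klk1b21, 7.73, ran from 6.86 (without M1 or M4) to 8.84 (without M12). That of Klk1b27, 6.49, ran from 5.81 without M10 to 7.59 without M12, and that of Klk1b1, 3.93, became 4.61 without M12.

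The WFDC gene Wfdc15b, of a family of protease inhibitors, was at 0, 15.8, 8.18 and 0.8 under vehicle and at 143, 526, 344 and 53.9 under E2/MPA. Its log2 difference of 5.58 (adjusted p = 0.00221) moved to 4.90 without M1, 6.26 without M2 and 6.18 without M12. Mmp7, the gene of matrilysin, went from 2572, 3683, 4183 and 1335 to 14016, 6970, 8378 and 8613 (3.4-fold, adjusted p = 0.00382), and was highest in M9. Serpina1e, an alpha-1-antitrypsin gene with near-identical copies, rose 5.42-fold (adjusted p = 0.00695). Serpinb11 and Serpinb1a, members of the intracellular serpin clade, fell by 1.27 and 1.85 (adjusted p = 1.9e-04 and 5.1e-04). Cathepsin L (Ctsl) went from 28539, 21733, 24120 and 21398 to 17039, 11715, 12465 and 15288 and fell by 0.77 (adjusted p = 0.00528). The plasminogen activator gene Plat fell by 0.53 (adjusted p = 0.0248), a call that ended without M1, M3, M10 or M11 (adjusted p up to 0.0935). Of 17 tested innate defence genes 3 rose and 0 fell, with a median log2 difference of 0.61 against -0.001 over all tested genes. Lyz1 rose from at most 11.2 under vehicle to 28.6, 92, 90.7 and 28.6 (adjusted p = 0.00251), and has a near-identical copy in Lyz2, which was highest in M4 and M12. Its log2 difference of 4.03 became 4.67 without M4. The call of Lcn2 (adjusted p = 0.0359) ended without M1, M4, M9, M10 or M11, and that of Saa3 (adjusted p = 0.0479) without any of M1, M2, M3 and M9 to M12 (adjusted p up to 0.11 and 0.15).

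Lipid synthesis genes were higher under E2/MPA as lists, and the members that passed were mostly higher. Of 24 cholesterol biosynthesis genes 23 were higher and 1 lower, and 5 rose and 0 fell, with a median log2 difference of 0.34. Pmvk, of the phosphomevalonate kinase, went from 378, 347, 418 and 544 to 739, 780, 702 and 862 (1.85-fold, adjusted p = 0.00211), and Lss, of lanosterol synthase, rose 1.72-fold. Sqle and Dhcr7 rose 1.34-fold and 1.41-fold, and their calls ended without M1, M10 or M11, among others (adjusted p up to 0.0953 and 0.112). Of 31 fatty acid and triglyceride synthesis genes 6 rose and 1 fell, with a median of 0.21. Agpat2, an acyltransferase gene of triglyceride synthesis, went from 1731, 3385, 2392 and 1695 to 5050, 6387, 5830 and 4394 (2.43-fold, adjusted p = 8.3e-04). The elongase gene Elovl5 rose 1.47-fold and Lpin3 1.82-fold, the last without its call when M11 was left out (adjusted p = 0.0542).

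Of 22 genes of mitochondrial biogenesis and fatty acid oxidation 5 rose and 2 fell. Pdk4, whose kinase inhibits pyruvate dehydrogenase, went from 0, 1.13, 0.818 and 3.2 to 19.5, 32, 22.5 and 25.3 (adjusted p = 2.0e-04). The nuclear receptor gene Pparg fell by 1.69 from 19.6, 16.9, 26.2 and 20.8 to 6.87, 6, 10.4 and 2.2 (adjusted p = 0.0141). Both genes were low but did not overlap between groups. Among 27 glycolysis and glycogen genes 3 rose and 0 fell, with a median of 0.08, near that of all genes. Hk1, a hexokinase gene, rose 1.41-fold (adjusted p = 0.00579). The glucose transporter gene Slc2a12 went from 16.6, 42.9, 23.7 and 29.6 to 308, 935, 797 and 113, a log2 difference of 3.86 (adjusted p = 9.4e-04) that became 4.47 without M12. Slc2a3, another glucose transporter gene, was at 29.3, 10.2, 2.45 and 72.8 and then at 151, 4413, 2763 and 186. Its log2 difference of 5.48 (adjusted p = 0.0107) ran from 4.64 without M10 to 6.26 without M9, and M10 and M11 carried it. Of 28 nuclear genes of oxidative phosphorylation 2 rose (7.14%, against 5.39% of all genes) and 0 fell, and 23 were higher. With the replicate block 11 rose, where 2363 of 16509 genes rose, and with the stromal covariate 12 rose, where 2230 did.

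The called metal handling genes were all higher under E2/MPA. Of 23 tested genes of metallothioneins and of zinc, copper and iron handling 7 rose and 0 fell, with a median of 0.38. Mt1 (ENSMUSG00000031765) went from 1715, 3802, 2722 and 3160 to 7850, 13645, 12725 and 11418 (4.08-fold, adjusted p = 9.1e-05). Metallothioneins bind zinc and copper and are known glucocorticoid targets. Mt2 rose 4.61-fold (adjusted p = 6.1e-04), though 73.5% of its exon bases overlap a predicted gene on the other strand that also rose. Mt3 went from 16.6, 56.4, 46.6 and 14.4 to 314, 586, 492 and 144 (11.5-fold, adjusted p = 3.8e-04). The zinc importer gene Slc39a14 rose 3.38-fold (adjusted p = 3.3e-04) from 659 to 1041 under vehicle to 1991 to 3328 under E2/MPA. The metalloreductase gene Steap4 rose 6.48-fold (adjusted p = 0.00528). Another zinc importer gene, Slc39a8, rose 2.86-fold, and its call ended without M1, M9, M10 or M11 (adjusted p up to 0.0675).

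**Figure D5:**
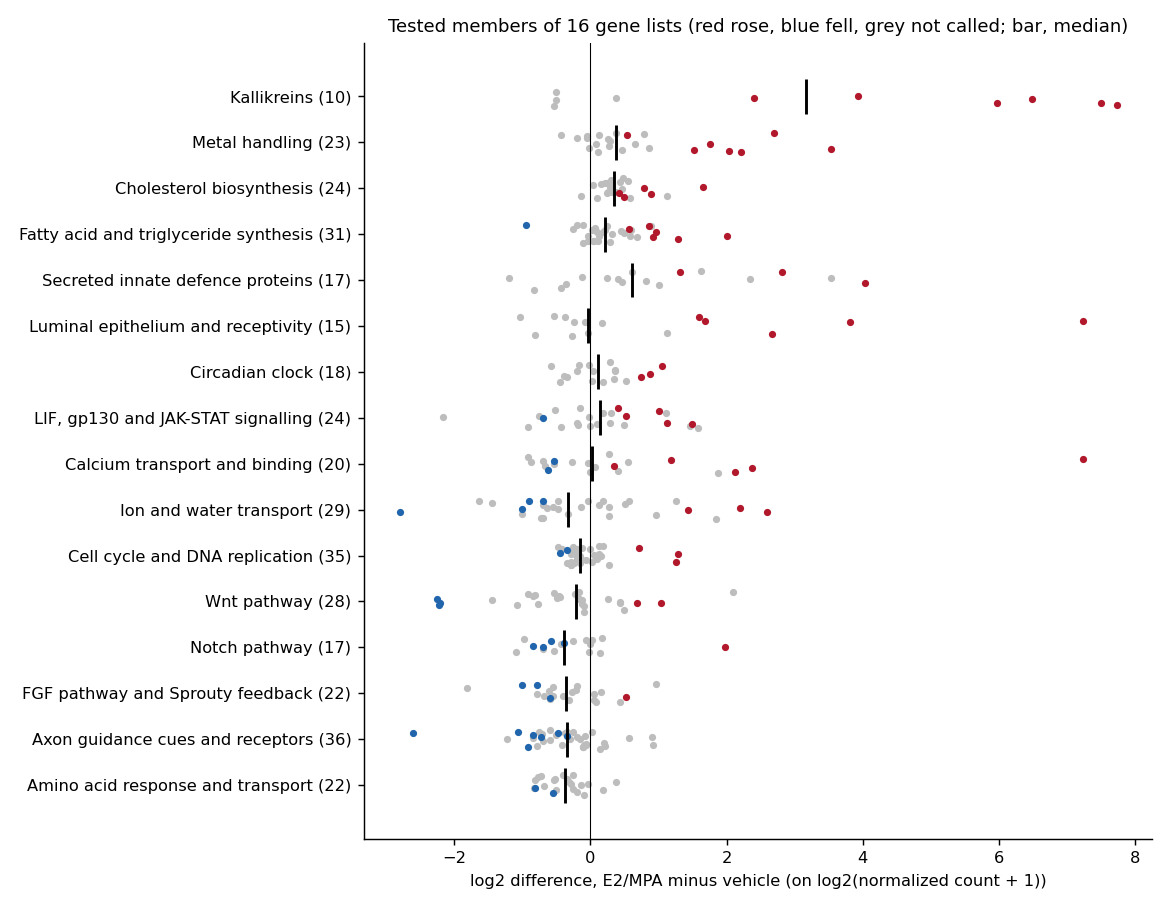
Log2 difference between E2/MPA and vehicle for the tested members (number in brackets) of 16 gene lists; each point is 1 gene, red rose, blue fell and grey was not called, and the bar is the list's median. Medians run from 3.17 (kallikreins) and 0.61 (innate defence) to -0.39 (Notch) and -0.37 (amino acid response).

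Transporters of ions and solutes changed in both directions. Of 254 tested solute carrier genes 24 rose and 15 fell, 15.4% in all, against 8.90% of all tested genes. Slc5a3, of the sodium and myo-inositol cotransporter, went from 3636, 3967, 4112 and 2494 to 15509, 12536, 13596 and 8113 (3.47-fold, adjusted p = 1.4e-04). Its locus lies within that of Mrps6, a mitochondrial ribosomal protein gene that rose 2.1-fold and shares 10.4% of its exon bases with Slc5a3 on the same strand, so reads of both may be mixed. Slc46a3, of a lysosomal carrier, rose 4.92-fold (adjusted p = 3.2e-04) and was 9.78 to 13.6 under vehicle and 50.6 to 66 under E2/MPA. Of 29 tested genes of sodium, chloride, bicarbonate and water transport 3 rose and 4 fell. Scnn1a (ENSMUSG00000030340), the alpha subunit of the epithelial sodium channel, went from 69.4, 65.5, 89.2 and 112 to 411, 650, 667 and 354 (6.04-fold, adjusted p = 2.1e-05). Fxyd4, a regulator of the sodium pump, rose 4.58-fold (adjusted p = 0.00843). Clic6 went from 312, 49.7, 125 and 294 to 34.3, 17, 8.64 and 39.6, a fall of 2.80 whose call ended without M1 or M11 (adjusted p up to 0.0562).

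Of 85 other ion channel genes 8 rose and 6 fell. Gabrp (ENSMUSG00000020159), of a GABA receptor subunit named for its high level in reproductive tissue, went from 4628, 4858, 6748 and 4819 to 1316, 1375, 1834 and 1537. It fell by 1.79 (SE 0.17, adjusted p = 2.1e-05). Clcn2, a chloride channel gene, went from 2040, 1649, 1575 and 2003 to 4935, 4945, 4433 and 3759 (2.49-fold, adjusted p = 1.2e-04). Cacna1d was at 12.4 to 20.8 under vehicle and at 112, 176, 154 and 122 under E2/MPA (8.08-fold, adjusted p = 3.0e-05). Of 20 calcium transport and binding genes 5 rose and 2 fell. The plasma membrane calcium pump genes Atp2b2 and Atp2b4 rose 5.22-fold and 4.38-fold (adjusted p = 0.00232 and 0.00852). Another pump gene, Atp2b1, fell by 0.54 from 5055 to 7455 under vehicle to 3842 to 4696 under E2/MPA. That call ended without M1, M4, M10 or M11 and also without the 4 stroma-rich libraries (adjusted p up to 0.439 over the alternatives). Stc2, of the hormone stanniocalcin 2, fell by 0.62. The calcium-buffering protein gene Calb1 was at 0, 10.2, 21.3 and 0 and then at 350, 2077, 2376 and 73.7, with a log2 difference of 7.24 that ran from 6.58 (without M1, M4 or M11) to 8.24 (without M12).

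In the prostaglandin pathway 2 of 20 tested genes rose and 1 fell. Ptgs1 (ENSMUSG00000047250), whose window is printed above, went from 467, 822, 443 and 743 to 5874, 6508, 6351 and 3333 (8.93-fold, adjusted p = 1.7e-04). Pla2g4a, of the phospholipase that releases arachidonic acid, went from 1228, 1528, 1523 and 1364 to 785, 952, 997 and 1003 and fell by 0.60 (adjusted p = 0.00607). The first enzyme of the pathway thus fell while a cyclooxygenase rose, each without overlap of the groups. Alox15, a lipoxygenase gene, rose 6.35-fold (adjusted p = 0.00718). In retinoic acid handling 4 of 20 genes rose and 1 fell. Aldh1a1, which makes retinoic acid and has a near-identical copy, went from 73.3, 457, 236 and 122 to 1382, 1979, 1652 and 1164 (8.54-fold, adjusted p = 0.00528). Rdh10, which makes its precursor, went from 12738, 8886, 8229 and 11867 to 4287, 4348, 3492 and 6715 and fell by 1.16 (adjusted p = 0.0122). Adh1 was at 0, 3.39, 0.818 and 0 and then at 11.4, 150, 188 and 48.4, with a log2 difference of 5.27 that became 6.06 without M9. The receptor gene Rxra rose 1.40-fold (adjusted p = 0.00688).

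In the hedgehog list 1 of 10 tested genes rose and 1 fell. The ligand gene Ihh, a known progesterone target in uterine epithelium, was at 36.1 to 50.8 under vehicle and at 126, 200, 137 and 86.9 under E2/MPA (3.02-fold, adjusted p = 0.00285). The receptor gene Ptch1 fell by 0.31, from 671 to 766 to 529 to 614 (adjusted p = 0.00748). In the Notch list 1 of 17 genes rose and 4 fell (23.5%, against 3.51% of all tested genes), with a median of -0.39. The riser was Rfng. The ligand gene Jag1 went from 1683, 1995, 1658 and 1982 to 855, 1146, 1184 and 887 and fell by 0.85 (adjusted p = 5.7e-04). The target gene Hes1 was at 1385, 1390, 1476 and 1355 under vehicle and at 1108, 1029, 1117 and 1032 under E2/MPA. That fall of 0.39 (SE 0.06, adjusted p = 0.00157) was small and without overlap of the groups. The coactivator gene Maml2 fell by 0.70 (adjusted p = 0.00261). In the Wnt list 2 of 28 genes rose and 3 fell, with a median of -0.21. The receptor gene Fzd10 went from 1694, 801, 1028 and 1340 to 336, 222, 209 and 251 and fell by 2.22 (adjusted p = 0.00695). The inhibitor gene Dkk2 fell by 2.21 (adjusted p = 0.0124), with M1 and M4 highest under vehicle and M9 and M12 highest under E2/MPA, the same libraries that had the highest stromal marker sums. Its call was kept with the stromal marker mean as a covariate. The ligand gene Wnt4 rose 2.05-fold (adjusted p = 0.0102), with overlapping groups. Lgr5, of an R-spondin receptor, was low, at 10.8, 12.4, 11.5 and 4.8 and then at 4.58, 0, 0.864 and 1.1. Its fall of 2.26 (adjusted p = 0.0267) lost its call by edgeR and without M1, M2, M3, M10 or M11 (adjusted p up to 0.0959). Outside that list, Ctnnb1, of beta-catenin, fell by 0.41 (adjusted p = 0.00475).

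Of 25 genes of TGF-beta and activin signalling 3 rose and 5 fell. Inhbb, the activin and inhibin beta B subunit gene, went from 5753, 4332, 4726 and 3610 to 2610, 1514, 1907 and 2551 and fell by 1.12 (adjusted p = 0.00494). Ltbp1, of a protein that tethers latent TGF-beta, went from 4064, 3276, 3247 and 4017 to 1981, 1325, 1470 and 2302 and fell by 1.07 (adjusted p = 8.9e-04), while its relative Ltbp4 rose from 23.7 to 93.6 under vehicle to 142 to 158 under E2/MPA (adjusted p = 0.0115). Tgfbrap1, of a receptor-associated protein, rose 2.45-fold (adjusted p = 5.2e-04), and the pseudoreceptor gene Bambi 4.02-fold (adjusted p = 0.00186). In the BMP list 2 of 21 genes rose and 1 fell. Chrd, of the antagonist chordin, went from 73.3, 47.4, 57.3 and 44 to 320, 510, 478 and 181 (6.25-fold, adjusted p = 1.7e-04), without overlap of the groups.

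In the FGF list 1 of 22 genes rose and 3 fell, with a median of -0.35. The feedback inhibitor gene Spry1 rose by 0.52 (adjusted p = 0.0184), a call that ended without M9 or M11 (adjusted p up to 0.0586). Its relatives Spry2 and Spry4 fell by 0.79 and 1.01, and both calls ended on leaving out any of M1, M4, M10 and M11, at an adjusted p of at most 0.0919 and 0.0803. For both falling genes M1 and M4, or M9 and M12, were the highest, as for the stromal markers, and both calls were kept with the stromal marker mean as a covariate. In the EGF list 0 of 16 genes rose and 2 fell. Lrig1, of an inhibitor of EGF receptors, fell by 0.73 and the receptor gene Egfr by 0.58. Their calls ended without M10 or M11, and that of Egfr also without M1, M4 or M9 (adjusted p up to 0.0558 and 0.103). In the LIF and JAK-STAT list 5 of 24 genes rose and 1 fell. The LIF receptor gene Lifr, needed for implantation, went from 1186, 1411, 1192 and 736 to 3551, 3659, 3170 and 2243 (2.81-fold, adjusted p = 0.00213). Jak2, of a cytokine receptor kinase, went from 6452, 9228, 8105 and 4672 to 16073, 18309, 17662 and 9571 (2.17-fold, adjusted p = 0.00651). Stat3 rose 1.32-fold with overlapping groups, and its call ended without M1, M10 or M11 (adjusted p up to 0.0652). The STAT target gene Pim1 fell by 0.69 (adjusted p = 0.0024). Of the genes named here, Lifr, Jak2 and Stat3 were thus higher, and Pim1 was the 1 gene of the list that fell.

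Of 30 NF-kappaB and cytokine response genes 3 rose and 3 fell. Nfkbia, of the inhibitor IkappaB alpha and a known glucocorticoid target, went from 1310, 1676, 1538 and 1696 to 3105, 3382, 3360 and 2608 (2-fold on the log scale, adjusted p = 1.3e-04). Il34, of a ligand of the CSF1 receptor, rose 2.44-fold (adjusted p = 5.0e-05). Tnip3, of an NF-kappaB inhibitor, went from 941, 1033, 695 and 907 to 224, 239, 154 and 476 and fell by 1.82 (adjusted p = 0.0091), and the interleukin 1 antagonist gene Il1rn fell by 1.54 (adjusted p = 0.0134), with M12 within the range of the vehicle libraries. Zfp36, whose product destabilises cytokine mRNA, went from 555, 668, 621 and 503 to 1440, 1763, 1681 and 1096 (2.52-fold, adjusted p = 1.1e-04). It was the 1 riser of 25 immediate early genes, of which 2 fell and 21 were lower. Junb fell by 0.60 (adjusted p = 0.0178), and not without M1, M10 or M11 (adjusted p up to 0.0685). Of 19 chemokine and chemokine receptor genes 2 rose and 3 fell. Ackr3 (ENSMUSG00000044337), of a scavenger receptor of CXCL12, went from 924, 906, 912 and 753 to 398, 352, 387 and 341 and fell by 1.24 (SE 0.13, adjusted p = 5.0e-05). Cxcr4, of the signalling receptor for the same ligand, went from 696, 164, 277 and 620 to 52.6, 15, 24.2 and 68.2 and fell by 3.42 (adjusted p = 0.00194). Both CXCL12 receptors fell, with the libraries of each group close together for Ackr3 and far apart for Cxcr4. Cx3cl1 fell by 0.60 (adjusted p = 0.00507) and Cxcl14 rose 3.05-fold (adjusted p = 0.013).

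Axon guidance genes also guide epithelial and vessel growth. Of 36 tested genes 0 rose and 7 fell (19.4%, against 3.51% of all tested genes), 29 were lower, and the median was -0.35. By DESeq2, 2 rose and 13 fell, where 1253 of 16487 genes rose and 922 fell. The netrin gene Ntn4 went from 957, 586, 747 and 745 to 433, 356, 357 and 457 and fell by 0.91 (adjusted p = 8.5e-04). The Slit receptor gene Robo1 went from 225, 115, 126 and 309 to 48.1, 15, 13.8 and 64.9 and fell by 2.60 (adjusted p = 0.00315). Nrp1, of a semaphorin and VEGF coreceptor, went from 1311, 929, 1209 and 1607 to 604, 615, 713 and 860 and fell by 0.84. The semaphorin gene Sema3b fell by 0.73 and the netrin receptor gene Neo1 by 0.35 (adjusted p = 0.00611 and 0.00638). Robo1 was highest in M1, M4, M9 and M12, as were the stromal markers, whereas Sema3b was highest in M10 and M11 under E2/MPA. Of 48 tested cadherin and protocadherin genes 41 were lower, with a median of -0.45, but 1 rose and 1 fell, or 4.17% against 8.90% of all genes. Pcdh17 went from 1744, 2063, 1902 and 1068 to 4177, 3996, 4010 and 3070 (2.3-fold, adjusted p = 3.8e-04), and Cdh13 fell by 1.10 (adjusted p = 0.0123). Of 30 matrix genes 1 rose and 3 fell. Lamb1, of the laminin beta 1 chain, fell by 1.10 (adjusted p = 0.00831), from 5960 to 10845 under vehicle to 2788 to 4895 under E2/MPA.

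Cldn3, a tight junction gene, went from 4099, 4298, 5023 and 4411 to 8353, 10375, 10419 and 6811 (1.99-fold, adjusted p = 1.7e-04) and was the 1 call of 19 tight junction genes. Of 12 tested basal and squamous genes, 1 rose and 2 fell. Lor, of the cornified envelope protein loricrin, went from 1911, 1811, 2341 and 2579 to 748, 651, 895 and 837 and fell by 1.46 (adjusted p = 6.8e-05). Sprr1a, of another envelope protein, fell by 0.84 with its call lost without M1, M3, M9, M10 or M11 (adjusted p up to 0.129). Krt4, a keratin gene of wet stratified epithelia, rose 3.49-fold (adjusted p = 0.00827) from 160 to 478 under vehicle to 998 to 1245 under E2/MPA. A further 3 genes were among the falls with the lowest adjusted p. Clstn1, of calsyntenin 1, went from 4794, 4233, 4191 and 4577 to 2779, 2553, 2560 and 3179 and fell by 0.69 (adjusted p = 9.1e-05). Ripk3, of the necroptosis kinase, fell by 0.88 and Hcar2, of the niacin receptor, by 1.29 (adjusted p = 2.9e-04 and 3.1e-04).

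Cell cycle genes were called at 14.3%, against 8.90% of all tested genes, with 3 rises and 2 falls of 35 tested. The ribonucleotide reductase genes Rrm1 and Rrm2, which make DNA precursors, rose 1.65-fold and 2.43-fold (adjusted p = 0.00206 and 0.00315). Rrm2 was at 315, 532, 454 and 329 under vehicle and at 1009, 949, 902 and 1009 under E2/MPA. E2f2 rose 2.39-fold (adjusted p = 0.0106). Ccnd1, of cyclin D1, fell by 0.35 and Mcm2, of the replicative helicase, by 0.44, and 23 of the 35 genes were lower. The calls of Ccnd1 and Mcm2 ended without M3, M9, M10 or M11, among others (adjusted p up to 0.0643 and 0.0954), and Mcm2 in M12 (1012) lay within the range of the vehicle libraries. Of 25 cell cycle inhibitors and p53 targets 5 rose and 1 fell. Gadd45g rose 3.56-fold (adjusted p = 0.00217) and the CDK inhibitor gene Cdkn2d 1.84-fold (adjusted p = 0.0116), and Cdkn2b fell by 0.58. Btg2 rose 1.78-fold, and its call ended without M1 or M11 (adjusted p up to 0.0541).

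Several classes were called by limma at less than the 8.90% of all tested genes, though some lay near that share. Of 84 cytosolic ribosomal protein genes 1 rose (1.19%), and of 46 proteasome genes 1 rose and 1 fell (4.35%). Of 27 interferon-stimulated genes 0 rose and 1 fell by limma, and edgeR and DESeq2 each called 2 falls. Without the 4 stroma-rich libraries 10 of the 27 fell, where 942 of 16509 genes fell. With the stromal covariate or the replicate block 10 fell as well, where 1954 and 2116 of 16509 genes did. Of 341 genes named Zfp 12 rose and 9 fell (6.16%). Of 30 apoptosis regulators 2 rose and 0 fell (6.67%), and of 20 heat shock genes 1 rose (5%). The amino acid response list was called near the share of all tested genes, with 0 rises and 2 falls of 22 (9.09%). Falls made up 3.51% of all tested genes, and 20 members of the list were lower. It had 5 falls by DESeq2, where 922 of 16487 genes fell, and 5 without the stroma-rich libraries, where 942 of 16509 did. With the replicate block it had 12, where 2116 of 16509 genes fell.

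The cKO organoids were set beside the control ones only to ask whether the response differed. No gene of 16509 passed limma's test of the difference, and 309 had an unadjusted p under 0.05. That is less than a share of 0.05, which even p-values without any difference would give. The lack of a call does not show that the responses were alike. The log2 differences in cKO were 3.20 for Ldhd, 1.35 for Slc25a48, 1.29 for Rfng, 0.62 for Gps1 and 0.77 for Fasn, all smaller than those in control organoids, for which these genes were chosen by their low adjusted p there, with unadjusted p of the difference from 0.00403 (Gps1) to 0.415 (Ldhd) and an adjusted p of 1 for each. Other named genes had larger values in cKO, with 2.15 for Mmp7 (1.76 in control), 1.82 for Lcn2 (1.32) and -0.95 for Jag1 (-0.85), with unadjusted p of 0.41, 0.34 and 0.587. Gabrp fell by 1.08 in cKO and Cxcr4 fell by 2.32, against 1.79 and 3.42 in control, with unadjusted p of 0.00883 and 0.189. None of these differences between genotypes passed the adjustment.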

How the data were processed

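Endometrial epithelial organoids were profiled by bulk RNA-seq in 16 libraries of 4 groups. The deposited signal values are gene read counts that the authors divided by a size factor per library. Tools named in the submitters' processing notes, with no versions or order, are featureCounts, HISAT2 and DESeq2, and the build is GRCm39. Whole reads were recovered from these values for 100% of them within 0.01. Depth and the strand setting are as stated with the results, and counting error is smallest for genes with many reads. Gene symbols and gene order came from GENCODE M21, and 822 genes without a symbol held 1.83% of the reads.

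Genes at 10 or more in at least 4 libraries were kept (16509 of 23306). They were tested with limma 3.58.1 (trend) in R 4.3.3 on log2(value + 1), with a mean for each of the 4 groups over all 16 libraries, 2-sided, and Benjamini-Hochberg adjustment over all tested genes at 0.05. Log2 differences and folds are on that scale, which understates low genes. "Rose" and "fell" mean past this threshold. The test was checked on simulated independent libraries without pairing or stromal differences, so the check does not cover those features of the data. Alternatives were edgeR 4.0.16 and DESeq2 1.42.0 on the recovered reads, other scalings, pseudocounts and filters, library weights, blocks, and each control library left out. The rule for named genes took Pgr and Esr1, the largest rises, falls, gains and losses without overlap of the groups, the lowest adjusted p, and called members of the lists. The members and lists were chosen with earlier results of these data known. Some results that the rule would name are not reported here.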

Additional observations from a re-analysis of the deposited data

Results flagged for a closer look

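In 19 of the 316 groups of 4 libraries examined for the named genes, 1 library lay far from the other 3, by a gap above Dixon's 95% critical value. Chance flags about 1 in 20 such groups. M12 was that library in 8 of them. Under E2/MPA it was the lowest for Pgr (1252, others 2032 to 2150), Per1 (721, others 1052 to 1130), Wfdc10 (66, others 274 to 341) and Ptgs1 (3333, others 5874 to 6508). It was also the lowest for Cxcl14 (479, others 1027 to 1119), Krt4 (998, others 1209 to 1245) and Pcdh17 (3070, others 3996 to 4177), and the highest for Mcm2 (1012, others 666 to 710). M12 and M4 had the highest stromal marker sums of their groups.

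Under vehicle, M4 was lowest for Pgr (3205, others 5663 to 6002), Ackr3 (753, others 906 to 924) and Lgr5 (4.8, others 10.8 to 12.4). M3 was highest for Gabrp (6748, others 4628 to 4858) and lowest for Klk1b11 (4.91, others 11.7 to 13.6), and M1 was highest for Lrig1 (6407, others 3646 to 3816). A few near-empty groups were set apart by single libraries, with Zbtb16 and Klk1b27 at 1.13 in M2 and Klk1b1 at 3.27 in M3, where the others were at 0. Under E2/MPA, M11 was highest for Slc25a48 (5830, others 5422 to 5476) and M9 lowest for Mt2 (735, others 1209 to 1288).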

How the results depend on the processing

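No gene called as deposited had the opposite call under any alternative. Of the 151 called genes named, 124 kept their call without each control library in turn. With only the 8 control libraries 48 of the 158 genes named lost their call, and against a fold of 1.2 it was 50. Over those leave-outs the calls ranged from 759 to 2230, with 501 to 1261 rises and 257 to 969 falls. Calls numbered 484 (330 rises, 154 falls) with only the 8 control libraries in the fit, 406 (320 and 86) with limma's treat against a fold of 1.2, and 2549 (1451 and 1098) with library weights. On the recovered reads, edgeR called 1497 genes and DESeq2 2175, with 922 falls. Without M4, M8, M12 and M16 there were 2210 calls with 942 falls, and with the stromal marker mean as a covariate 4184 (2230 and 1954). The cause of these shifts was not tested. Libraries whose numbers differ by 8 deviated together (correlations of 0.44, 0.62, 0.62 and 0.75). For each of M1 to M4 that library was the best partner among M9 to M12, a hint from the data that the labels do not state. A replicate block on that pairing gave 4479 calls (2363 and 2116) as a random effect, which held all 1469, and 3393 (1831 and 1562) as a fixed term. Genes with few vehicle reads have the least certain differences.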
